A study of Mus musculus with 10 samples.

Results

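Gene expression in the colon of wild-type (WT) mice given dextran sulfate sodium (DSS) was compared with that of untreated WT mice. Of the 10 libraries of the series, 5 belong to this comparison. They are DSS-treated WT libraries 2, 3 and 4 and untreated WT libraries 2 and 3, as numbered in the deposited count table, and they were chosen by genotype and treatment. The mice were C57BL/6 females of 8 weeks. The DSS-treated WT mice drank 2% DSS for 5 days, the untreated WT mice drank none, and all colons were collected on Day 5. The other 5 libraries come from mice that lack ERdj5, an endoplasmic reticulum (ER) reductase encoded by Dnajc10 (3 DSS-treated, 2 untreated). They entered the statistical fit and are described only where they differ from WT. The labels number the samples of each group and the study counts mice, but the numbers differ from those of the table, and the untreated groups hold 1 library fewer than the DSS-treated ones. Since no source says outright that each library is a separate mouse, every p-value measures the spread between libraries, which may be partly technical. DSS at this dose and time is a model of chemical injury, and RNA came from colon tissue rather than from sorted cells, so fewer cells of a type and less RNA per cell cannot be told apart.

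DSS is a sulfated polymer of glucose that damages the lining of the colon when mice drink it. The lining is a single sheet of cells, in which absorptive colonocytes take up water and salt and goblet cells secrete the mucus that keeps bacteria away. When the sheet is breached, epithelial cells make antimicrobial proteins and reactive oxygen and nitrogen species, and chemokines draw in neutrophils and other leukocytes. The colon also has a circadian clock, in which the proteins BMAL1 (encoded by Arntl) and CLOCK switch on the Per and Cry genes, whose products in turn hold BMAL1 and CLOCK back.

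The 3 DSS-treated WT libraries held 64331798 to 72197887 counted reads and the 2 untreated WT libraries 59798576 and 59238997. Between 23263 and 23944 genes had at least 1 read in a library. Pearson's r of log2 CPM (read counts per library size, scaled with TMM factors) was 0.974 to 0.983 over the 10 pairs of libraries, and no 2 libraries of a group were alike within sampling noise (mean chi-square per gene 64.1 to 89.0 within DSS-treated WT and 41.5 within untreated WT, over 16343 genes). DSS-treated WT library 2 stood furthest out. On the first principal component, which held 37.1% of the variance and whose sign is arbitrary, the DSS-treated WT libraries lay at -59.9, -5.31 and -14.0 and the untreated WT libraries at 46.7 and 32.5. Dnajc10 had 139.7, 138 and 121 CPM in DSS-treated WT libraries, against 113 and 132 CPM in untreated WT libraries, and these ranges overlapped.

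To ask which genes changed in WT colon with DSS, 20472 genes were tested by quasi-likelihood in edgeR, with Benjamini-Hochberg adjustment. At an adjusted p under 0.05, 5 genes (0.0244%) passed, 4 higher (0.0195%) and 1 lower (0.00488%) in DSS-treated WT colons. The higher genes were Ppm1l, Zbtb16, Slc13a2os and Nos2, and the lower one was Arntl. At the study's thresholds, an unadjusted p under 0.01 and a fold over 3, 86 genes (0.42%) passed, 52 higher (0.254%) and 34 lower (0.166%). At an unadjusted p under 0.05 there were 1435 genes (7.01%), 788 higher (3.85%) and 647 lower (3.16%). The median log2 fold change over all tested genes was -0.0002, with a 5th percentile of -0.92 and a 95th percentile of 0.69. All 3 DSS-treated WT libraries lay above both untreated WT libraries for 3072 genes (15%) and below both for 2704 genes (13.2%), together 28.2% of the genes tested. These shares are the background for the gene lists described further on.

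**Figure D1:**
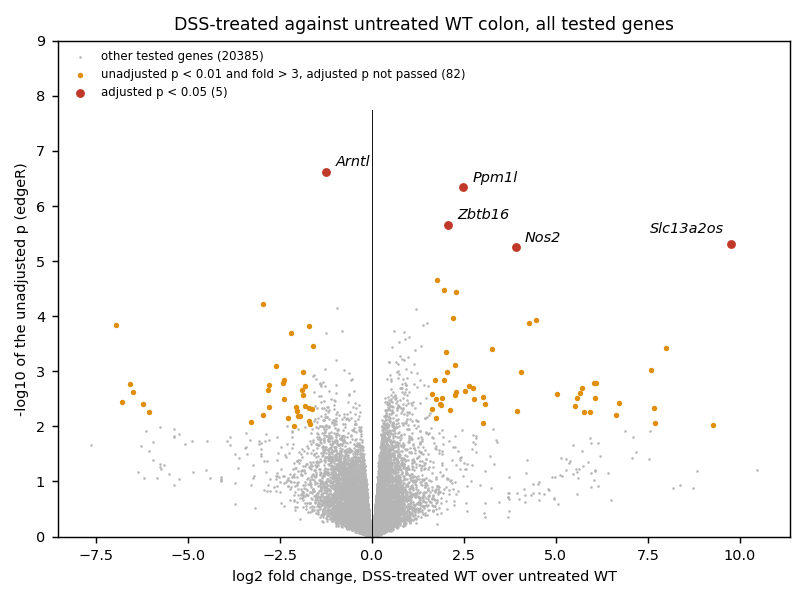
Each of the 20472 tested genes is plotted by its log2 fold change in DSS-treated over untreated WT colon (x axis) and the -log10 of its unadjusted p from edgeR (y axis). The 5 genes past an adjusted p of 0.05 are named, and the genes that passed only the study's p and fold are in orange. Most genes lie near 0, and Arntl is the only named gene left of it.

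Nos2, which encodes the inducible nitric oxide synthase, had 192, 91.3 and 192 CPM in DSS-treated WT libraries, against 8.96 and 12.0 CPM in untreated WT libraries. The lowest library with DSS was thus several times above the highest without. The log2 fold change was 3.92 (n = 3 and 2 libraries, SE 0.44, Benjamini-Hochberg-adjusted p = 0.0232 in edgeR). The level averaged 159 ± 58.2 CPM with DSS and 10.5 ± 2.18 CPM without (SD). Nos2 lies on chromosome 11 of GRCm38.p6.

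Ppm1l, which encodes a membrane-bound protein phosphatase of the PP2C family that works at the ER, had 17.5, 14.5 and 15.9 CPM in DSS-treated WT libraries, against 2.57 and 3.12 CPM in untreated WT libraries. The libraries of each group lay close together, far from those of the other group. It rose by 2.49 on the log2 scale (adjusted p = 0.0046 in edgeR, SE 0.21), or 5.60-fold. Ppm1l lies on chromosome 3 from 69316918 to 69560798. Zbtb16 on chromosome 9 (48651797 to 48836225) encodes PLZF, a zinc finger transcription factor that glucocorticoids induce in many cells and that innate-like T cells need. It had 25.8, 24.4 and 27.7 CPM in DSS-treated WT libraries, against 6.98 and 5.36 CPM in untreated WT libraries, again with no overlap. It rose by 2.07 on the log2 scale (adjusted p = 0.0149 in edgeR, SE 0.21), or 4.21-fold.

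Slc13a2os is a non-coding RNA annotated on chromosome 11 from 78394485 to 78405657, antisense to the dicarboxylate transporter gene Slc13a2. It had 149, 102 and 98 reads in DSS-treated WT libraries and 0 in both untreated WT libraries. The 0 counts allow a level of at most 3 reads over the untreated group, so the transcript was at least 70.7-fold higher with DSS, a bound that covers counting error only (adjusted p = 0.0232 in edgeR). The sources used here do not say whether counting used strand, and without strand its reads could not be told apart from those of Slc13a2 where the genes overlap. Slc13a2 itself had 229, 150.2 and 131 CPM in DSS-treated WT libraries, against 101 and 83.7 CPM in untreated WT libraries, and missed the threshold (adjusted p = 0.62 in edgeR).

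Arntl was the gene with the smallest p. It had 11.04, 11.1 and 11.2 CPM in DSS-treated WT libraries, against 25.8 and 26.5 CPM in untreated WT libraries, so that the groups were far apart and the libraries within each nearly equal. It fell by 1.23 on the log2 scale (adjusted p = 0.0046 in edgeR, SE 0.10), and was 2.35-fold lower with DSS. Arntl spans 113178471 to 113314126 on chromosome 7.

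These 5 calls rest on few libraries. Without untreated WT library 2 or 3, none of the 5 passed, with adjusted p of 0.0552 and 0.0755 for Arntl, 0.0847 and 0.0755 for Ppm1l, 0.0847 and 0.154 for Zbtb16, 0.483 and 0.203 for Nos2, and 0.179 and 0.152 for Slc13a2os (edgeR). Zbtb16 and Nos2 were also lost without DSS-treated WT library 2 (0.0549 and 0.0716) or 4 (0.0737 for each, edgeR), and Slc13a2os without any single library, with an adjusted p of 0.0522 to 0.0685 where a DSS-treated WT library was left out. All 5 calls were also lost in edgeR fits of the 5 WT libraries alone or with the library number as a block. The fold changes themselves moved little, with log2 values of 3.72 to 4.19 for Nos2, 2.35 to 2.63 for Ppm1l, 1.90 to 2.28 for Zbtb16 and -1.26 to -1.21 for Arntl over the fits that left out 1 library. No other gene named from here on passed the adjusted threshold in this fit, and values are given for these without a call.

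**Figure D2:**
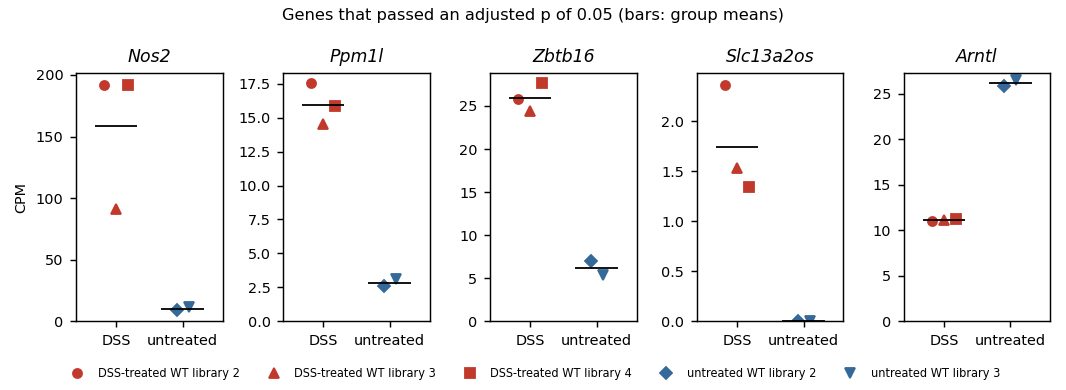
CPM (y axis, linear from 0) of the 5 genes that passed an adjusted p of 0.05, with the DSS-treated WT libraries on the left and the untreated WT libraries on the right of each panel. Points are libraries and bars are group means. In no panel do the groups overlap, and Slc13a2os is at 0 in both untreated WT libraries.

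The genes around Arntl in the circadian clock were looked at as a group. Of 20 clock genes tested, 1 passed (Arntl), 10 lay above both untreated WT libraries in all 3 DSS-treated WT libraries and 3 lay below, against 15% and 13.2% of all genes. Their median log2 fold change was 0.42, against -0.0002 over all genes, and was between 0.33 and 0.51 when any 1 library was left out. Npas2, a partner of BMAL1 that can stand in for CLOCK, had 18.3, 14.6 and 16.6 CPM in DSS-treated WT libraries, against 21.6 and 24.01 CPM in untreated WT libraries. The groups did not overlap, and Npas2 was lower with DSS like Arntl. Clock itself overlapped between the groups, with 108, 98.1 and 104 CPM with DSS and 101 and 92.3 CPM without.

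Of the repressors, Per1 had 64.4, 57.7 and 74.7 CPM in DSS-treated WT libraries, against 38.2 and 41.7 CPM in untreated WT libraries (log2 fold change 0.71, SE 0.15, adjusted p = 0.353, edgeR). Per2 had 92.2, 67.5 and 65.8 CPM with DSS and 48.3 and 40.7 CPM without (0.76, SE 0.18, adjusted p = 0.409, edgeR). Per3 had 69.0, 70.4 and 55.5 CPM with DSS and 34.9 and 30.4 CPM without (0.99, SE 0.26, adjusted p = 0.458, edgeR). All 3 Per genes were higher in every DSS-treated WT library than in either untreated one. DESeq2, a second count model, gave all 3 an adjusted p under 0.05. It is less strict here, with 173 calls against 5 in edgeR, and 49 false calls on simulated counts against 4. The cryptochromes did not move alike, since Cry2 had 33.4, 33.2 and 19.7 CPM with DSS and 19.6 and 18.3 CPM without, while Cry1 had 16.9, 12.8 and 13.3 CPM with DSS and 17.4 CPM in both untreated libraries. Ciart and Bhlhe40, further repressors of BMAL1 and CLOCK, had 11.3, 12.4 and 15.9 CPM and 231, 229 and 276 CPM with DSS, against 8.27 and 8.22 CPM and 184 and 175 CPM without. Both were higher with DSS in every library.

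Output genes of the clock include the PAR bZIP factors, which bind the D-box. Tef had 142, 166 and 126 CPM in DSS-treated WT libraries, against 98.6 and 79.1 CPM in untreated WT libraries, and Dbp had 48.7, 69.5 and 51.8 CPM, against 41.5 and 35.9 CPM. For both genes the groups were apart, by little for Dbp. Of the REV-ERB receptors, which repress Arntl, Nr1d2 had 106, 122 and 91.7 CPM with DSS and 89.3 and 74.0 CPM without. Nr1d1 overlapped, with 91.5, 145 and 146 CPM with DSS and 133 and 127 CPM without, the lowest value being that of DSS-treated WT library 2. The sources used here give no time of day for the collection, and its part in these differences was not tested.

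**Figure D3:**
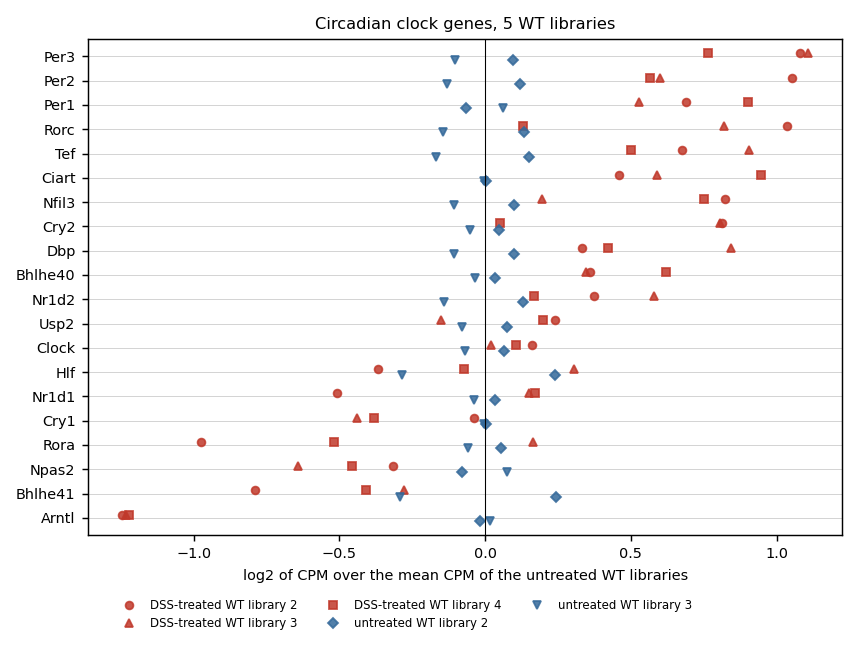
Each row is 1 of 20 clock genes, ordered by fold change, and the x axis is the log2 of a library's CPM over the mean CPM of the untreated WT libraries. Red symbols above the row line are the 3 DSS-treated WT libraries and blue symbols below it the 2 untreated WT libraries. The Per genes lie furthest right and Arntl furthest left, near -1.23.

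Promoter sequences of the clock genes were looked at for elements that clock proteins can bind. The 250 bases before each RefSeq start were searched on both strands in GRCm38.p6 for the E-box CACGTG, bound by BMAL1 with CLOCK or NPAS2, and for the D-box TTATGTAA, bound by DBP and TEF. The E-box was present in 8.79% of the 14569 tested genes that have such a sequence and in 5 of 17 clock genes (Bhlhe41, Ciart, Cry1, Per1 and Tef), and the D-box in 0.748% of the tested genes and in 1 clock gene, Per3. The sequences of Per1, Tef, Ciart and Per3 are printed because these genes were higher in all 3 DSS-treated WT libraries and hold a match, in capitals (E-box in Per1, Tef and Ciart, D-box in Per3), and that of Arntl because it is the gene that fell, with no match to either element in this window. Cry1 also holds an E-box match, but was lower in all 3 DSS-treated WT libraries and is not printed. Elements of other factors that act on Arntl, such as the REV-ERB receptors, were not searched for. A match describes the letters and says nothing about binding in these samples.
Per1 (chr11:69098699-69098948, plus strand): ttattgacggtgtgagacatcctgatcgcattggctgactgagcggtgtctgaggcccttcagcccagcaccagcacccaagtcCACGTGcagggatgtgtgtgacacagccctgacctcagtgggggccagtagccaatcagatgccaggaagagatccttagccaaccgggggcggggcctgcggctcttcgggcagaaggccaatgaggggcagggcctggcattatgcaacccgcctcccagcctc
Tef (chr15:81802423-81802672, plus strand): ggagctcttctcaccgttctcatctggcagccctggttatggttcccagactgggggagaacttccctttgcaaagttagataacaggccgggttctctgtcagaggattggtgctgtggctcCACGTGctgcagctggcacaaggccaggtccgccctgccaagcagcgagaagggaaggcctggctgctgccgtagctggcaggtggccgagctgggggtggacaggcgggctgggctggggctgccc
Ciart (chr3:95882229-95882478, minus strand): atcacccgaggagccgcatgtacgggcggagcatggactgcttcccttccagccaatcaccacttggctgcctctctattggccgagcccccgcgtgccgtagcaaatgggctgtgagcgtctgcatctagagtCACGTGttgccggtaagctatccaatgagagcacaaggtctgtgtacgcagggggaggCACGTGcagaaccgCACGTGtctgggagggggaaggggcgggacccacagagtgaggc
Per3 (chr4:151044666-151044915, minus strand): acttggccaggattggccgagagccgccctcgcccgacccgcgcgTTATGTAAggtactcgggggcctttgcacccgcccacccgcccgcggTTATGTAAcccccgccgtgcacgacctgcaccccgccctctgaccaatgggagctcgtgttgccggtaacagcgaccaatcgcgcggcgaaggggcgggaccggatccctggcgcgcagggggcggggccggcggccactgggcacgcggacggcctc
Arntl (chr7:113207215-113207464, plus strand): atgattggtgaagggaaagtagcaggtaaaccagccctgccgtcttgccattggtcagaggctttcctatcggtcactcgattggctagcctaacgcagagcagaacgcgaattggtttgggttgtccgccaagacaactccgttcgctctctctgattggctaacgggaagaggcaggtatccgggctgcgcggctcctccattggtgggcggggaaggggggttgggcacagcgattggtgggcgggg

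Zbtb16 and Per1 are also on a list of glucocorticoid-responsive genes, of which 15 were tested. On this list 1 passed (Zbtb16), 7 lay above both untreated WT libraries in every DSS-treated WT library, and 2 lay below. These are 46.7% above and 13.3% below, against 15% and 13.2% of all genes. The median log2 fold change was 0.30, against -0.0002 over all genes.

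Genes of epithelial defence were mostly higher with DSS. Of 22 antimicrobial and acute-phase genes tested out of 24, 1 passed (Nos2), 15 lay above both untreated WT libraries in all DSS-treated WT libraries and 2 below, against backgrounds of 15% and 13.2%. The median log2 fold change was 0.94, and 0.74 to 1.31 with 1 library left out. Duox2, the epithelial oxidase that releases hydrogen peroxide, had 520.4, 352 and 433 CPM in DSS-treated WT libraries, against 158 and 151 CPM in untreated WT libraries (log2 fold change 1.49, SE 0.24, adjusted p = 0.171, edgeR). Its maturation factor Duoxa2 had 131, 73.4 and 113 CPM with DSS and 44.8 and 45.2 CPM without. Both were higher in every library with DSS. Of the alternative fits, both passed only under the less strict DESeq2.

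Among secreted proteins, Reg3b, a lectin that kills bacteria, had 14.5, 5.94 and 16.1 CPM in DSS-treated WT libraries, against 0.643 and 2.91 CPM in untreated WT libraries. Its relative Reg3g had 7.87, 2.09 and 6.22 CPM with DSS and 0.289 and 1.69 CPM without. In both genes DSS-treated WT library 3 came nearest to the untreated WT libraries. Slpi, an inhibitor of neutrophil proteases, had 119.6, 145 and 107 CPM with DSS and 70.9 and 77.2 CPM without, and Pla2g2a, a phospholipase that attacks bacterial membranes, had 47.5, 19.6 and 47.7 CPM with DSS and 11.6 and 13.1 CPM without. Steap4, a metal reductase, had 25.1, 13 and 16.6 CPM with DSS and 6.64 and 5.73 CPM without. All of these lay apart between the groups.

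The serum amyloid genes differed in level. Saa1 had 1949, 919.7 and 928 CPM in DSS-treated WT libraries, against 720.3 and 436 CPM in untreated WT libraries, and Saa3 had 10.5, 26.2 and 26.5 CPM, against 3.18 and 2.74 CPM. DSS-treated WT library 2 was the highest of the 5 for Saa1 and the lowest of the 3 DSS-treated WT libraries for Saa3. Pigr, the receptor that carries IgA across the epithelium, had 3748, 3059.5 and 3152 CPM with DSS and 2238 and 2114 CPM without. Lcn2, an iron-sequestering protein of epithelium and neutrophils, was low and overlapped, with 1.46, 1.74 and 1.21 CPM with DSS and 0.788 and 1.25 CPM without. Serine proteases and their inhibitors, a separate list, had 10 of 19 genes above and 2 below (52.6% and 10.5%, against 15% and 13.2% of all genes). Their median was 0.28 (0.26 to 0.32 with 1 library left out), and 0 passed.

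Among the higher genes that passed the study's p and fold with the smallest p, several are known from epithelium. Dmbt1, a secreted scavenger protein that binds bacteria, had 10186, 6867 and 7939 CPM in DSS-treated WT libraries, against 2193 and 2114 CPM in untreated WT libraries (log2 fold change 1.95, SE 0.27, adjusted p = 0.094, edgeR). Aldh1a3, which makes retinoic acid, had 8.04, 8.21 and 11.2 CPM with DSS and 2.64 and 2.68 CPM without (1.78, SE 0.23, adjusted p = 0.0749, edgeR). The groups were far apart for both genes, and both passed when no filter on low counts was applied.

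Clca4b, of the secreted family of chloride channel regulators, had 1825, 953 and 1087 CPM in DSS-treated WT libraries, against 229 and 324 CPM in untreated WT libraries. Lrg1, a glycoprotein that modifies TGF-beta signalling, had 72.9, 14.1 and 53.6 CPM with DSS and 2.86 and 1.97 CPM without, with DSS-treated WT library 3 low, and passed when that library was left out. Plet1, a surface protein of epithelial progenitors, had 73.0, 22.6 and 14.9 CPM with DSS and 1.29 and 2.04 CPM without. The spread among the DSS-treated WT libraries was wide for Plet1 and Lrg1, and the groups still did not overlap.

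Retnlb, a goblet cell protein that acts on gut bacteria, had 100.3, 63.3 and 56.6 CPM in DSS-treated WT libraries, against 16.1 and 20.4 CPM in untreated WT libraries. Isx, an intestinal homeobox factor that represses vitamin A uptake, had 33.5, 8.33 and 13.3 CPM with DSS and 3.12 and 2.35 CPM without. Dhrs9, a retinol dehydrogenase, had 19.6, 11.9 and 20.1 CPM with DSS and 5.50 and 5.49 CPM without. Together with Aldh1a3 these are 3 genes of vitamin A metabolism, picked for their p and fold and not as a list. The sugar transporter gene Slc5a9 had 53.6, 24.3 and 50.4 CPM, against 10.1 and 10.5 CPM, and the keratin gene Krt36 had 10.7, 4.54 and 4.97 CPM, against 1.82 and 1.00 CPM. Ly6m, of the Ly6 family of surface proteins, had 596, 313 and 257 CPM with DSS and 124 and 76.2 CPM without. DSS-treated WT library 2 was the highest for Isx, Slc5a9, Krt36 and Ly6m.

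**Figure D4:**
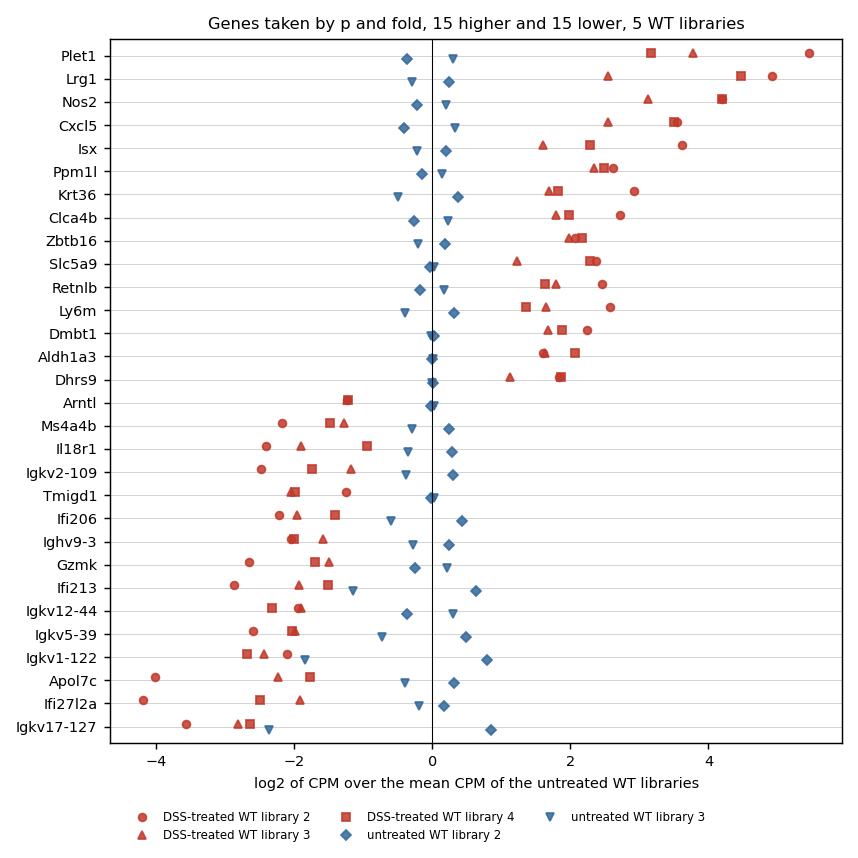
Each row is a gene chosen by p, fold and non-overlap, 15 higher and 15 lower in DSS-treated WT colon, and the x axis is the log2 of a library's CPM over the mean CPM of the untreated WT libraries. Red symbols are the 3 DSS-treated WT libraries and blue symbols the 2 untreated WT libraries. Separation is by the choice of the genes, so the spread within groups is what the plot adds, wide for Plet1, Lrg1, Ifi27l2a and Igkv17-127 and narrow for Ppm1l, Zbtb16, Aldh1a3 and Arntl.

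Of 17 genes of CXC chemokines and their receptors, 4 lay above both untreated WT libraries in all DSS-treated WT libraries, 2 lay below and 0 passed. These are 23.5% above and 11.8% below, against 15% and 13.2% of all genes. The median log2 fold change of the list was -0.32, and 0.11 without untreated WT library 2. The members above include chemokines that attract neutrophils. Cxcl5 had 8.25, 4.13 and 8.01 CPM in DSS-treated WT libraries, against 0.531 and 0.887 CPM in untreated WT libraries (log2 fold change 3.26, SE 0.61, adjusted p = 0.255, edgeR). Cxcl2 had 2.92, 0.932 and 3.52 CPM with DSS and 0.129 and 0.164 CPM without (4.05, SE 0.84, adjusted p = 0.391, edgeR), and Cxcl1 had 0.555, 0.496 and 0.742 CPM with DSS and 0.145 and 0.230 CPM without. None of these 3 overlapped between the groups. Tnf, the gene of tumour necrosis factor, had 8.88, 8.85 and 16.7 CPM with DSS and 4.89 and 5.39 CPM without.

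Several other cytokines overlapped between the groups. Il1b had 6.55, 5.28 and 14.6 CPM in DSS-treated WT libraries, against 7.80 and 5.98 CPM in untreated WT libraries, and its direction was set by DSS-treated WT library 4. Il6 had at most 0.124 CPM in any of the 5 libraries, Il22 at most 0.539 CPM and Il10 at most 0.822 CPM, and each overlapped. Ifng, the interferon of T and natural killer cells, had 0.619, 1.32 and 2.27 CPM with DSS and 2.85 and 2.23 CPM without, and overlapped narrowly. Arg1, arginase, had 0.381, 0.842 and 0.467 CPM with DSS and 0.354 and 0.329 CPM without, and was higher in every library with DSS. Of 15 CC chemokine genes, 3 lay above and 5 below, with a median of -0.48 (-0.79 to -0.040 with 1 library left out). Of 15 genes of the IL-1 family, 3 lay above and 5 below, with a median of -0.14, and of 10 genes of type 2 immunity 4 lay above and 2 below, with a median of 0.13. The shares above and below were 20% and 33.3% for CC chemokines and for the IL-1 family, and 40% and 20% for type 2 immunity. Over all genes they were 15% and 13.2%.

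Some neutrophil markers were near 0 in WT colon and others were not. S100a8 and S100a9, the calprotectin genes, had 2.08, 0.346 and 0.467 CPM and 1.32, 0.391 and 0.783 CPM in DSS-treated WT libraries, against 0.0322 and 0.0657 CPM and 0.0482 and 0.115 CPM in untreated WT libraries. The neutrophil chemokine receptor gene Cxcr2 was at or below 0.386 CPM throughout, and the granule gene Ngp had no read in any of the 5. Ltf, the iron-binding granule protein lactoferrin, had 5.81, 4.87 and 16.6 CPM in DSS-treated WT libraries, against 2.07 and 2.103 CPM in untreated WT libraries, with no overlap. Of 22 markers tested out of 24, 8 lay above both untreated WT libraries and 1 below (36.4% and 4.55%, against 15% and 13.2% of all genes). Their median log2 fold change was 0.67 (0.47 to 0.93 with 1 library left out). Some of these markers passed the low-count filter only through DSS-treated libraries of ERdj5-deficient mice. The markers summed to 583, 379 and 446 CPM with DSS and 252 and 243 CPM without, and most of it was Ly6g (321, 217 and 285 CPM, against 167 and 142 CPM) and Cd177 (241, 134 and 123 CPM, against 67.6 and 87.6 CPM). Reads of Ly6g may be shared with near-identical Ly6 genes.

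Mucus and barrier genes were described next, since loss of the barrier defines the model. Muc2, the gel-forming mucin, had 3125, 3086 and 3202 CPM in DSS-treated WT libraries, against 2566 and 2818 CPM in untreated WT libraries. Clca1, a mucus-processing protease, had 1364, 1256 and 1895 CPM with DSS and 2363 and 1963 CPM without, and Klk1, a kallikrein of goblet cells, had 524, 415 and 453 CPM with DSS and 736 and 662 CPM without. Muc2 was thus higher and Clca1 and Klk1 were lower with DSS in every library. Spdef, the transcription factor of goblet cell maturation, had 48.9, 42.8 and 35.4 CPM with DSS and 29.1 and 30.8 CPM without. Of 20 goblet cell genes, 7 lay above and 3 below both untreated WT libraries (35% and 15%, against 15% and 13.2% of all genes). Their median log2 fold change was 0.17, and 0 passed. That median was 0.019 without DSS-treated WT library 2.

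Of 21 genes for building mucin sugars, 11 lay above and 1 below (52.4% and 4.76%, against 15% and 13.2% of all genes). Their median was 0.30, and 0 passed. Among transmembrane mucins, Muc13 had 4666, 3427 and 4036 CPM in DSS-treated WT libraries, against 2482 and 2491 CPM in untreated WT libraries, and Muc3 had 6603, 7597 and 8983 CPM, against 6566 and 6545 CPM. Muc13 was clearly apart and Muc3 only just, through DSS-treated WT library 2. Of 18 claudin and tight junction genes, 9 lay above (50%) and 3 below (16.7%), with a median of 0.19. Tjp1, the scaffold ZO-1, had 184, 175 and 185 CPM with DSS and 151 and 144 CPM without, and Cldn1, a claudin, overlapped with 0.841, 3.65 and 1.21 CPM with DSS and 1.67 and 1.64 CPM without.

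Transport genes of colonocytes went both ways. Aqp8, the water channel of surface colonocytes, had 426, 205 and 296 CPM in DSS-treated WT libraries, against 657 and 454 CPM in untreated WT libraries. Aqp4, another water channel, had 491, 339 and 455 CPM with DSS and 273 and 265 CPM without, and Car4, a carbonic anhydrase, had 1012, 606 and 769 CPM with DSS and 543 and 385 CPM without. Scnn1g, a subunit of the epithelial sodium channel, had 47.8, 18.3 and 21.7 CPM with DSS and 13.7 and 9.23 CPM without. Aqp8 was lower and the other 3 were higher with DSS in every library. Of 25 transport genes, 9 lay above and 3 below (36% and 12%, against 15% and 13.2% of all genes). Their median was 0.05 (0.023 to 0.32 with 1 library left out). Fabp2, a fatty acid carrier, had 7.80, 6.84 and 11.6 CPM with DSS and 24.2 and 25.8 CPM without, and Tmigd1, an adhesion protein of mature enterocytes, had 2.00, 1.16 and 1.21 CPM with DSS and 4.71 and 4.85 CPM without. Both were lower in every library with DSS.

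T cell genes were mostly lower with DSS. Of 19 T cell genes, 16 lay below both untreated WT libraries in all DSS-treated WT libraries and 0 above, against backgrounds of 13.2% and 15%, with a median log2 fold change of -1.15 (-1.44 to -0.81 with 1 library left out), and 0 passed. Cd8a and Cd8b1, the chains of the CD8 co-receptor, had 6.77, 10.3 and 11.8 CPM and 2.87, 4.54 and 4.04 CPM in DSS-treated WT libraries, against 24.2 and 18.8 CPM and 11.5 and 8.46 CPM in untreated WT libraries. Cd3e, a chain of the T cell receptor complex, had 4.09, 6.04 and 5.80 CPM with DSS and 14.5 and 10.6 CPM without. DSS-treated WT library 2 was the lowest of all for each of these genes.

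Of 13 genes of natural killer and cytotoxic cells, 11 lay below and 0 above (84.6% and 0%, against 13.2% and 15% of all genes). Their median log2 fold change was -1.19. Gzmb, the protease granzyme B, had 5.57, 10.8 and 14.5 CPM in DSS-treated WT libraries, against 23.04 and 31.9 CPM in untreated WT libraries. Nkg7, a granule membrane protein, had 4.84, 8.22 and 8.86 CPM with DSS and 18.1 and 19.1 CPM without, and the chemokine gene Ccl5 had 15.6, 30.3 and 27.7 CPM with DSS and 59.3 and 59.4 CPM without. Gzmk, Ms4a4b and Il18r1, all expressed in T cells, were among the 15 lower genes taken by p and fold. Gzmk had 1.05, 2.33 and 2.02 CPM with DSS and 5.53 and 7.62 CPM without, Ms4a4b had 7.46, 13.8 and 12.1 CPM with DSS and 39.9 and 27.4 CPM without, and Il18r1 had 1.38, 1.95 and 3.79 CPM with DSS and 8.89 and 5.72 CPM without.

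B cell genes varied between libraries of the same group instead. Relative to the untreated WT mean, the mean log2 level of the list was -0.16, -1.33 and 0.42 with DSS and 1.23 and -1.23 without. It was lowest in library 3 of each group. All 15 B cell and follicle genes tested overlapped between the groups. Their median log2 fold change was -0.70, and it ranged from -1.45 to 1.02 with 1 library left out, turning positive without untreated WT library 2. Of 17 plasma cell genes, 9 lay below and 2 above (52.9% and 11.8%, against 13.2% and 15% of all genes), with a median of -0.84. Without untreated WT library 2 the median was -0.22, and 5 lay above (29.4%, against 25.9% of all genes in that fit). In the same fit 52.9% of the list lay below, against 26.1% of all genes. Jchain, which joins IgA molecules, had 219, 301 and 231 CPM in DSS-treated WT libraries, against 665 and 317 CPM in untreated WT libraries, so untreated WT library 2 stood apart and library 3 was close to the libraries with DSS. The same held for the immunoglobulin segment gene Igkv17-127, with 1.79, 3.02 and 3.41 CPM, against 38.5 and 4.16 CPM, and for Igkv1-122, with 3.22, 2.56 and 2.16 CPM, against 23.8 and 3.83 CPM. For Igkv5-39, Igkv12-44, Igkv2-109 and Ighv9-3 both untreated WT libraries lay above all 3 with DSS. Such segments have close copies, which makes their counts uncertain.

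Interferon-induced genes were lower to differing extents. Of 27 antiviral interferon genes, 17 lay below both untreated WT libraries and 0 above (63% and 0%, against 13.2% and 15% of all genes). Their median log2 fold change was -0.60, and 0 passed. Isg15, a ubiquitin-like protein, had 41.4, 98.2 and 144 CPM in DSS-treated WT libraries, against 227 and 187 CPM in untreated WT libraries. Bst2, which tethers budding viruses, had 25.4, 48.2 and 53.3 CPM with DSS and 90.9 and 78.1 CPM without, and Oas1a, an RNA sensor, had 133, 188 and 218 CPM with DSS and 273 and 232 CPM without. DSS-treated WT library 2 was the lowest for each, and for Ifit1 the groups overlapped (74.3, 135 and 172 CPM, against 211 and 159 CPM). Relative to the untreated WT mean, the mean log2 level of the list was -1.52, -0.49 and -0.21 in DSS-treated WT libraries 2, 3 and 4. The median was -0.89 to -0.32 with 1 library left out.

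Ifi27l2a, an interferon-induced mitochondrial protein, had 9.60, 46.2 and 30.9 CPM in DSS-treated WT libraries, against 196 and 153 CPM in untreated WT libraries (log2 fold change -2.60, SE 0.54, adjusted p = 0.364, edgeR). Apol7c, an apolipoprotein L of dendritic cells, had 1.33, 4.58 and 6.33 CPM with DSS and 26.8 and 16.4 CPM without. Ifi206 and Ifi213, of the family of DNA sensors with a HIN domain, had 2.01, 2.43 and 3.57 CPM and 2.71, 5.20 and 6.98 CPM with DSS, against 12.7 and 6.21 CPM and 30.8 and 8.96 CPM without. The groups were apart for all 4 genes. Cxcl9, a chemokine for T cells induced by interferon-gamma, had 13.9, 32.5 and 51.0 CPM with DSS and 64.1 and 70.2 CPM without. Of 18 genes of MHC class I and the immunoproteasome, 13 lay below and 0 above (72.2% and 0%, against 13.2% and 15% of all genes). Their median was -0.45 (-0.64 to -0.27 with 1 library left out). B2m, the shared light chain, had 1385, 2526 and 2432 CPM with DSS and 3156 and 3059.8 CPM without, and H2-Q6 had 118, 237 and 221 CPM, against 391.7 and 335 CPM. H2-Q6 has close copies. In 2 related lists most members overlapped. Of 21 GTPase genes induced by interferon-gamma, 5 lay below (23.8%) and 0 above, with a median of -0.46, and -0.095 without DSS-treated WT library 2. Of 11 MHC class II genes, 3 lay below (27.3%) and 0 above, with a median of -0.59 (-0.92 to -0.31 with 1 library left out). DSS-treated WT library 4 was at the untreated WT level or above it in both lists, at 0.14 and 0.018 on the log2 scale.

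The interferon-stimulated response element was searched for in the same way, with the core GAAA, any 2 bases and GAAA. It was present in 3.34% of tested genes with a promoter sequence and in 9 of 19 genes of the antiviral list, and matches may overlap each other. The sequences of Isg15, with 3 overlapping matches on the printed strand, and Ifit1, with 2 on the other strand, are shown because these genes stand for the list with and without separation of the groups. Capitals mark the matches.
Isg15 (chr4:156200819-156201068, minus strand): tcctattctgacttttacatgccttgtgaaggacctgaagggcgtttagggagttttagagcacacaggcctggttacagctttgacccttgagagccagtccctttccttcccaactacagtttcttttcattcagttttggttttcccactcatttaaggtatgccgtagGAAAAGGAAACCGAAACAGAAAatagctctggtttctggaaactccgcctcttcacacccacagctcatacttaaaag
Ifit1 (chr19:34640639-34640888, plus strand): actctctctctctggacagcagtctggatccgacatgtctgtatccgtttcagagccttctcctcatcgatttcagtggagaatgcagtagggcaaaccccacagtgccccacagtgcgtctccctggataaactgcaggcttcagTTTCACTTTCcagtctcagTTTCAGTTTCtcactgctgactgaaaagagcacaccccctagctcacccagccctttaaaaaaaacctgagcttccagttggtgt

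**Figure D5:**
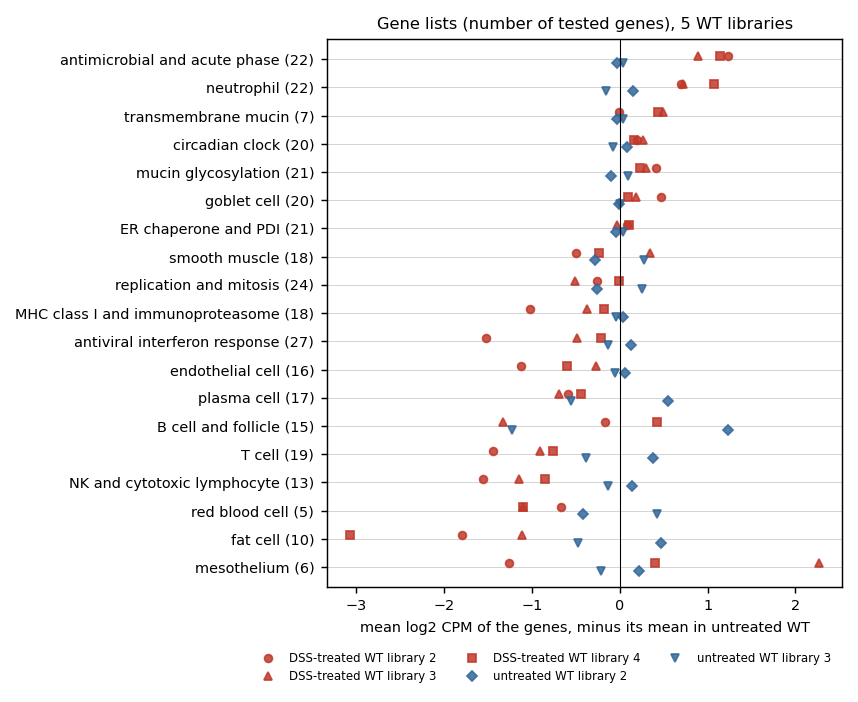
Each row is a gene list with its number of tested genes, and the x axis is the mean log2 CPM of its genes in a library minus the mean over the untreated WT libraries. Red symbols are the 3 DSS-treated WT libraries and blue symbols the 2 untreated WT libraries. The antimicrobial list lies to the right in every library with DSS (1.23, 0.90 and 1.14), and the T cell list lies to the left (-1.44, -0.91 and -0.76). The B cell, fat cell and mesothelium lists spread between libraries of the same group.

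Genes of ER folding and stress were looked at because the study concerns ERdj5. The 21 ER chaperones and disulfide isomerases differed little. Of these, 1 lay above (4.76%) and 0 below, with a median log2 fold change of 0.09. Hspa5, the chaperone BiP, had 559, 399.9 and 604 CPM in DSS-treated WT libraries, against 493 and 519 CPM in untreated WT libraries, and overlapped. Of 24 genes of the unfolded protein response and ATF4, 7 lay above (29.2%) and 4 below (16.7%), with a median of 0.13. The shares over all genes were 15% and 13.2%. Xbp1, a transcription factor of this response, had 318, 261 and 287 CPM with DSS and 245 and 247 CPM without, while Atf4 had 139, 131 and 134 CPM with DSS and 145 and 168 CPM without. Ddit3, the stress factor CHOP, overlapped with 11.2, 12.8 and 12.0 CPM with DSS and 14.9 and 11.9 CPM without. Herpud1, which serves ER-associated degradation, had 188, 155 and 151 CPM with DSS and 117 and 119.7 CPM without. It was one of 4 genes of 19 in that pathway that lay above (21.1%, against 15% of all genes).

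Markers of tissue outside the epithelium moved with treatment or varied between libraries of the same group. Of 10 fat cell genes, 7 lay below both untreated WT libraries and 0 above (70% and 0%, against 13.2% and 15% of all genes). Their median log2 fold change was -1.94 (-3.15 to -1.28 with 1 library left out). Adipoq, the fat hormone adiponectin, had 0.603, 0.706 and 0.0549 CPM in DSS-treated WT libraries, against 5.53 and 1.73 CPM in untreated WT libraries, and Car3, a carbonic anhydrase abundant in fat, had 3.32, 6.49 and 0.824 CPM with DSS and 35.2 and 14.0 CPM without. The fat cell genes summed to 144, 178 and 140 CPM with DSS and 245 and 181 CPM without. All 5 red blood cell genes tested lay below (100%, against 13.2% of all genes). The 7 red blood cell genes with counts deposited, tested or not, summed to 7.47, 5.49 and 5.19 CPM with DSS and 8.57 and 16.0 CPM without. Of 16 endothelial genes, 10 lay below (62.5%) and 0 above, with a median of -0.65 (-0.79 to -0.43 with 1 library left out). The receptor gene Kdr had 2.71, 3.97 and 3.14 CPM with DSS and 6.09 and 5.93 CPM without. How far differing amounts of attached fat, vessel or blood in the samples bear on the lower lymphocyte genes was not tested.

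Mesothelium, muscle, matrix and cell cycle genes varied between libraries of the same group. The mesothelium genes Msln and Upk3b had 0.904, 7.15 and 2.16 CPM and 0.0793, 3.68 and 0.536 CPM in DSS-treated WT libraries, against 0.997 and 0.690 CPM and 0.531 and 0.575 CPM in untreated WT libraries, the highest value being that of DSS-treated WT library 3. Smooth muscle genes had a median of -0.12 (-0.39 to 0.21 with 1 library left out) and all 18 overlapped, with Myh11, a smooth muscle myosin, at 496, 918 and 623 CPM with DSS and 641 and 898 CPM without. Relative to the untreated WT mean, their mean log2 level was -0.50, 0.35 and -0.24 with DSS and -0.28 and 0.28 without. Library 3 was the highest of each group. All 22 fibroblast and matrix genes overlapped as well, with a median of -0.23. On the same scale they were at -1.16, 0.47 and -0.56 with DSS and -0.24 and 0.24 without, again highest in library 3 of each group. Without DSS-treated WT library 3, however, the median was -0.84 and 19 of them lay below (86.4%, against 21.1% of all genes in that fit). Mki67, a marker of dividing cells, had 163, 128 and 167 CPM with DSS and 160.1 and 230.0 CPM without. Of 24 replication and mitosis genes, 1 lay below (4.17%, against 13.2% of all genes) and 0 above, with a median of -0.29. Without untreated WT library 3 that median was 0.047. Without untreated WT library 2 it was -0.54, with 17 below (70.8%, against 26.1% of all genes in that fit). Tac1, the gene of substance P and the member of the neuron list with the smallest p, had 56.2, 28.0 and 49.9 CPM with DSS and 10.5 and 14.3 CPM without. Of 13 tuft cell genes, 6 lay below and 0 above (46.2% and 0%, against 13.2% and 15% of all genes). Their median was -0.65 (-0.74 to -0.34 with 1 library left out).

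The genes with the most reads were COX1 and CYTB of the mitochondrial respiratory chain, Lypd8, Muc3 and Krt8. Reads per gene depend on transcript length, so their levels are not ranked against each other. Lypd8, a surface protein of colonocytes that holds off flagellated bacteria, had 14018, 12803 and 13242 CPM in DSS-treated WT libraries, against 12268 and 11117 CPM in untreated WT libraries. Krt8, a keratin of simple epithelium, had 6138, 5484 and 5437 CPM with DSS and 6181 and 6882 CPM without. COX1 had 24938, 22676 and 19725 CPM with DSS and 20361 and 21386 CPM without, and CYTB had 7783, 7359.6 and 5725 CPM with DSS and 5894 and 6216 CPM without. Epithelial markers were thus abundant in all 5 libraries, as the labelled tissue calls for.

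The response in WT differed from that of ERdj5-deficient (KO) colons for many genes. The difference of the responses, KO minus WT, passed at an adjusted p under 0.05 for 5482 genes (26.8%), and for all 5 genes that passed in WT. The difference contains the WT response that selected these 5 genes, so their calls were likely in advance and are no separate result. Arntl had 25.1, 24.4 and 27.05 CPM in the DSS-treated KO libraries and 25.1 and 26.6 CPM in the untreated KO libraries, all at the untreated WT level (difference of log2 fold changes 1.21, SE 0.14, adjusted p = 0.0012, interaction term of edgeR). Ppm1l had 17.7, 16.1 and 23.6 CPM in the DSS-treated KO libraries and 18.5 and 22.5 CPM in the untreated KO libraries, near the level of DSS-treated WT (difference -2.59, SE 0.27, adjusted p = 0.0011, same edgeR term). Slc13a2os had 0.740, 1.12 and 1.77 CPM and 1.58 and 1.06 CPM in these libraries, so only the untreated WT libraries held no read. Zbtb16 had 11.1, 13.8 and 8.73 CPM in the DSS-treated KO libraries and 12.3 and 12.6 CPM in the untreated KO libraries, between the WT levels (difference -2.22, SE 0.28, adjusted p = 0.0015, same edgeR term). Of the 86 genes at the study's p and fold in WT, 58 had a KO response of the same sign and 40 had a called difference. The 86 were likewise selected by the WT response, so the called differences among them are no separate result.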

How the data were processed

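The authors sequenced colon RNA from libraries made with a stranded kit that selects mRNA. In the submitters' processing notes the tools are StringTie 2.1.3b, HISAT2 2.1.0, Trimmomatic 0.38 and Bowtie2 2.3.4.1, with the mouse build mm10 and no role for each. Strand use and the treatment of reads that map to several genes are not given in the sources used here. Per gene and library, the authors deposited read counts for 29320 genes, and these were tested as deposited. The table also holds the authors' own fold changes and p-values for their comparisons and 30 further columns of values per library, none of which were used. Library numbers are those of the table.

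The analysis used edgeR 4.0.16, limma 3.58.1 and R 4.3.3. The default low-count filter on 4 groups kept 20472 genes. Libraries were scaled with TMM factors, and all 10 entered a single quasi-likelihood model with 1 mean for each group (6 residual degrees of freedom). Benjamini-Hochberg adjustment covered every tested gene, with calls at an adjusted p under 0.05. On simulated counts for this comparison (20472 genes, 200 of them altered), edgeR recovered 4 of 67 genes altered 1.5-fold, 33 of 67 altered 2-fold and 61 of 66 altered 4-fold, with 4 false calls. DESeq2 1.42.0 recovered 21, 51 and 63 of these, with 49 false calls.

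The libraries, the 63 gene lists (1082 genes, 1052 in the table, 1013 tested) and the named genes were chosen with earlier results of these data known. By rule, genes were named where the paper discusses them, where they were among 15 higher or 15 lower genes by call, p and fold (mean log2 CPM of at least 1, no overlap, no predicted genes), where they were called or among the 4 smallest p of a list, or where they were among the 5 with the most reads. The rule gives 290 genes, of which 204 are not given with values. Of 116 genes given with values, 30 fall outside this rule and were chosen after their values were seen. They are Slc13a2os, a call below the level minimum, the overlapping gene Slc13a2, and members of the lists. List counts cover members past the low-count filter, which a gene may pass through 1 group only. Positions, for 29251 genes, and promoter sequences are those of RefSeq for GRCm38.p6. Alternatives were RLE factors, DESeq2, no filter, at least 10 counts in every library, the WT libraries alone, a block for library number, and fits that each left out 1 library.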

Additional observations from a re-analysis of the deposited data

Results flagged for a closer look

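Of the genes named above, 72 responded to DSS differently in KO than in WT colons by the interaction term of the same edgeR fit (adjusted p under 0.05). Over all tested genes the share was 26.8%. Many of the named genes were chosen by their WT response, which this term contains, so the number is no separate result. A difference of responses can lie in the untreated libraries as well as in those with DSS. Retnlb had 1.27 and 1.99 CPM in untreated KO libraries, against 16.1 and 20.4 CPM in untreated WT libraries. Gzmb, with a positive difference, had 2.16, 2.61 and 2.33 CPM in DSS-treated KO libraries, below DSS-treated WT (5.57, 10.8 and 14.5 CPM). Cxcl5 had 331, 125 and 437 CPM in DSS-treated KO libraries, above DSS-treated WT (8.25, 4.13 and 8.01 CPM). All values that follow are differences of log2 fold changes, the response in KO minus the response in WT, so a negative one means a lower response in KO, not a lower level. No explanation for them was tested. Among clock genes, the KO response minus the WT response was 1.21 for Arntl, 1.12 for Npas2, 1.75 for Cry1, -1.16 for Per1, -1.61 for Per2, -3.07 for Per3, -2.48 for Tef, -4.90 for Dbp, -3.09 for Ciart, -2.28 for Nr1d1, -1.67 for Nr1d2 and -2.12 for Cry2. Among antimicrobial, oxidase and acute-phase genes, the KO response minus the WT response was 4.88 for Nos2, 1.66 for Duox2, 2.75 for Duoxa2, 3.77 for Slpi, 6.37 for Saa3, 4.24 for Lcn2, 2.74 for Pla2g2a, 2.22 for Steap4, 4.64 for Lrg1 and 4.11 for Retnlb. Among chemokine and cytokine genes, the KO response minus the WT response was 5.65 for Cxcl1, 10.5 for Cxcl2, 4.40 for Cxcl5, 5.90 for Cxcl9, 4.51 for Ccl5, 3.56 for Tnf, 5.44 for Il1b, 9.29 for Il6, 3.33 for Il10, 6.79 for Ifng and 3.68 for Arg1.

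Among lymphocyte and neutrophil genes, the KO response minus the WT response was 1.87 for Cd3e, 2.23 for Cd8a, 2.55 for Cd8b1, 3.59 for Gzmb, 4.32 for Gzmk, 2.19 for Nkg7, 2.87 for Ms4a4b, 12.0 for Cxcr2, 4.59 for Ltf, 1.81 for Cd177, 2.67 for Ighv9-3 and 1.68 for Igkv5-39. Among interferon and MHC class I genes, the KO response minus the WT response was 2.82 for Bst2, 3.86 for Ifi206, 3.72 for Ifi213, 3.16 for Ifi27l2a, 3.23 for Apol7c, 1.76 for B2m and 3.27 for H2-Q6. Among epithelial genes, the KO response minus the WT response was 5.71 for Clca4b, 4.50 for Plet1, 3.52 for Tmigd1, 3.76 for Dhrs9, 2.04 for Krt36, -2.42 for Klk1, -1.75 for Muc3, -2.45 for Clca1, -2.83 for Car4 and 2.08 for Aqp4. Among other genes, the KO response minus the WT response was -2.59 for Ppm1l, -2.22 for Zbtb16, -9.89 for Slc13a2os, -4.11 for Myh11, -7.00 for Upk3b, 1.78 for Mki67, 0.95 for Atf4, 1.504 for Hspa5, -1.06 for COX1 and -0.93 for CYTB. Slc13a2os has no read in untreated WT libraries, and Cxcl2, Cxcr2 and Il6 none in untreated KO libraries, so their differences depend on the prior count and are no bounds. Ifng, Gzmk, Il10 and Cxcl1 had at most 0.0395, 0.0715, 0.172 and 0.172 CPM in untreated KO libraries, so their differences rest on few reads there.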

How the results depend on the processing

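The number of genes called between DSS-treated and untreated WT colons depended on the model. DESeq2 called 173 (114 higher, 59 lower, among them all 5 of edgeR), whereas edgeR called 0 (0 higher and 0 lower) with the 5 WT libraries alone, where 64 genes were lower at the study's p and fold. With at least 10 counts in every library, 48 genes passed the study's p and fold, 27 higher and 21 lower, since fewer genes were tested. Leaving out 1 library gave 0 to 6 calls, 0 to 5 higher and 0 to 1 lower. It gave 26 to 74 genes lower at the study's p and fold, 2824 to 4840 called differences between KO and WT responses, and 4121 to 5586 genes above and 3900 to 5664 below without overlap. The 1 call without untreated WT library 2 was LOC115486872, which had no read in untreated WT library 3, and Lrg1 and Fxyd4 were called without DSS-treated WT library 3. RLE factors left the same 5 calls.

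Deviations of same-numbered libraries from their group means correlated with r = 0.018 and 0.081. These correlations over all genes are weak, but cannot tell whether samples were paired. They are not separate checks either, since the deviations of the 2 untreated libraries mirror each other. The second principal component held 24.1% of the variance. On it, libraries numbered 2 lay at 25.2 (DSS-treated WT) and 37.6 (untreated WT), and those numbered 3 at -47.9 and -15.3. DSS-treated WT library 4 lay at 0.318. Same-numbered libraries were thus on the same side of this component. With the number as a replicate block, edgeR gave 0 calls, 0 higher and 0 lower.

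Over 116 named genes and 11 alternatives, 1171 results kept direction and side of the threshold, 27 lost and 47 gained a call (44 of these by DESeq2), and 15 changed sign, none of them of a called gene. With 1 library left out, the log2 fold change was -0.24 to 0.62 for Il1b, -4.85 to 0.17 for Il6, -2.75 to 0.24 for Cxcr2, -0.69 to 0.55 for Cldn1, -0.33 to 0.096 for Il10, -0.099 to 0.20 for Hspa5, -0.31 to 0.012 for Ddit3, -0.82 to 1.92 for Upk3b, -0.16 to 0.16 for Nr1d1 and -0.46 to 0.085 for Myh11. With the block it was -0.14 for Hspa5. The cause was not tested. With 2 untreated libraries, most 1.5-fold changes in simulated counts were missed by edgeR.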
